A study of Saccharomyces cerevisiae with 2 samples.

Results

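The small nucleolar RNAs (snoRNAs) of budding yeast were followed by the organisation of their genes in a crosslinking experiment on Bud22, a nucleolar protein needed to make the small ribosomal subunit. The members are all features of the class snoRNA in the deposited count files, 62 of the 2635 named features seen in either library. By gene organisation, 7 of them lie in introns of protein-coding genes, 16 in polycistronic clusters and 39 are independent genes. The R64 gene table of the reference strain names 76 snoRNA genes, and the class in the files also holds NME1, the RNA of RNase MRP, which makes 77 genes in all. Of these, 15 had no row in either file: the intronic SNR191, the polycistronic SNR57 and 13 independent genes.

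The first library comes from cells whose Bud22 carries a HIS-TEV-protein A tag (genotype Bud22-HIS-TEV-proteinA), and the other from untagged W303 wildtype cells, which show what the purification recovers without a tagged protein. Cells of both were grown in YPD to an OD600 of 1.0, kept for 4 h in SDC-URA with the photoreactive uracil analogue 4-thiouracil, and irradiated at 365 nm for 30 min. The control's growth text names the tagged strain, while its genotype, title and source name say wildtype. Each group has 1 library, so the comparisons are between these libraries, with no replicate error and no test.

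In yeast, most snoRNAs have their own promoter. Polycistronic snoRNAs are made as a common precursor that the endonuclease Rnt1 cuts between the members, and intronic snoRNAs are released from the spliced and debranched intron of their host pre-mRNA. All are then trimmed by exonucleases up to the bound proteins. Box C/D snoRNAs carry Nop1, Nop56, Nop58 and Snu13 and guide ribose methylation of rRNA, and box H/ACA snoRNAs carry Cbf5, Gar1, Nhp2 and Nop10 and guide pseudouridylation. U3, U14 (SNR128), snR30 and snR10 act instead, or also, in cleavage of the ribosomal RNA precursor on the way to 18S rRNA.

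The counts are raw numbers of reads overlapping each feature on its own strand. Of the sense reads over named features, snoRNAs took 1529 of 215982 with tagged Bud22 and 1422 of 132895 without the tag. These totals are sums over features, where a read that overlaps several features counts at each. They exceed the mapped reads, 188065 with Bud22 and 97270 in the control, by different factors. The files also give, for each feature, a smaller number that behaves as the count of distinct read entries behind the reads, and these came to 64 for the snoRNAs with Bud22 and 380 in the control. A snoRNA entry thus stood for 23.9 reads on average in the Bud22 library and for 3.74 in the control, so the Bud22 reads of many members trace back to very few entries. Of the 24 snoRNAs with Bud22 reads, 13 rested on 1 entry, with 6 to 49 reads each, and 6 on 2 entries. Each ratio below is the share of a snoRNA or group in the Bud22 library over its share in the control, with an exact 95% interval for counting error only. If the number is read in this way, reads of 1 entry are not independent molecules and read intervals are too narrow. Values by entries therefore stand beside them. The counts are not per length, so members are compared between the libraries and not ranked by abundance.

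With all members counted, reads were divided among the 3 kinds of gene in nearly the same way in both libraries, but this depended on single genes. Independent snoRNAs held 983 of the snoRNA reads with Bud22, or 64.3% (61.8 to 66.7), against 961 in the control, or 67.6% (65.1 to 70.01). Polycistronic snoRNAs held 448 reads with Bud22, or 29.3% (27.03 to 31.7), against 367 in the control, or 25.8% (23.6 to 28.2). Intronic snoRNAs held 98 reads with Bud22, or 6.41% (5.23 to 7.76), against 94 in the control, or 6.61% (5.37 to 8.03). The intervals of the libraries overlapped for each kind. Without SNR128, the polycistronic share was 12.1% with Bud22 (10.3 to 14.1) and 22.1% in the control (19.9 to 24.4). Without SNR39B and SNR60, left out after their values were seen, the independent share was 63.0% with Bud22 (60.5 to 65.5) and 43.1% in the control (39.6 to 46.6), and the polycistronic share was 30.4% with Bud22 and 45.3% in the control. These intervals did not overlap between the libraries.

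Entries gave the same division. With Bud22, 40, 20 and 4 entries fell on independent, polycistronic and intronic snoRNAs, which is 62.5%, 31.3% and 6.25%. In the control the entries were 251, 102 and 27, which is 66.1%, 26.8% and 7.11%. By reads, the quotient of polycistronic over independent snoRNAs was 0.456 with Bud22 and 0.382 in the control, an odds ratio of 1.19 whose interval lies just above 1 (1.01 to 1.41). By entries the odds ratio was 1.23 (0.648 to 2.28). Between intronic and independent snoRNAs the odds ratio by reads was 1.02 (0.749 to 1.39), and that by entries was 0.930 (0.225 to 2.88). The entry intervals leave room for a difference of about 2-fold in the first pair, and for a larger one in the second.

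**Figure D1:**
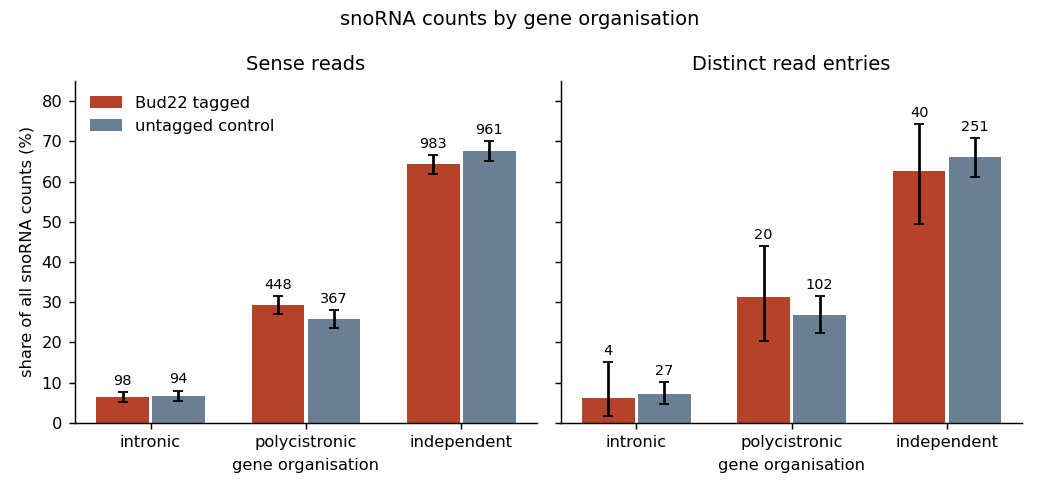
Share of all snoRNA counts (%) held by intronic, polycistronic and independent snoRNAs, by sense reads on the left and by distinct read entries on the right, with the Bud22 library in red and the untagged control in grey-blue. Bars are shares, lines are exact 95% intervals for counting error, and the numbers above are the counts. The paired bars differ by less than 4 percentage points for reads, while the entry intervals with Bud22 are wide.

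As shares of all named features, the ratio with all members counted was, by reads, 0.641 (0.478 to 0.861) for intronic, 0.751 (0.653 to 0.865) for polycistronic and 0.629 (0.575 to 0.689) for independent snoRNAs, with intervals excluding 1. By entries it was 0.929 (0.236 to 2.67), 1.23 (0.721 to 2.0) and 0.9995 (0.697 to 1.40), with intervals including 1. The direction by reads depends on the scale: the measured named features have a median log2 ratio of -0.93, and with that median set to 0 the ratios became 1.22, 1.43 and 1.199. It also depends on single genes. Without the member with most reads over both libraries in each kind (SNR59, SNR128 and SNR30) the ratios were 1.12 (0.702 to 1.83), 0.307 (0.250 to 0.374) and 0.409 (0.368 to 0.454). SNR128 and SNR30 were picked through their Bud22 reads, so leaving them out had to lower the ratios of their groups. Without SNR39B and SNR60 the independent ratio was 1.64 (1.45 to 1.86) by reads and 1.19 (0.800 to 1.73) by entries.

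Fewer different snoRNAs were seen with Bud22 in each kind. Sense reads fell on 3 of 8 annotated intronic genes with Bud22 and on 6 in the control. They fell on 5 of 17 polycistronic genes with Bud22 and on 15 in the control, and on 16 of 52 independent genes with Bud22 and on 38 in the control. As shares of the annotated genes, that is 37.5%, 29.4% and 30.8% with Bud22, against 75.0%, 88.2% and 73.1% in the control. The Bud22 library held 64 snoRNA entries against 380, and 5920 entries over all named features against 37130. How much of the smaller number of genes follows from that was not tested. Of the genes seen, 22 had sense reads in both libraries, 2 (SNR35 and SNR44) only with Bud22 and 37 only in the control. The same counts over all named features are not given here, so nothing particular to snoRNAs can be read from these numbers. SNR53 had 1 antisense read in the control and no sense read, and no other snoRNA had an antisense read in either library.

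**Figure D2:**
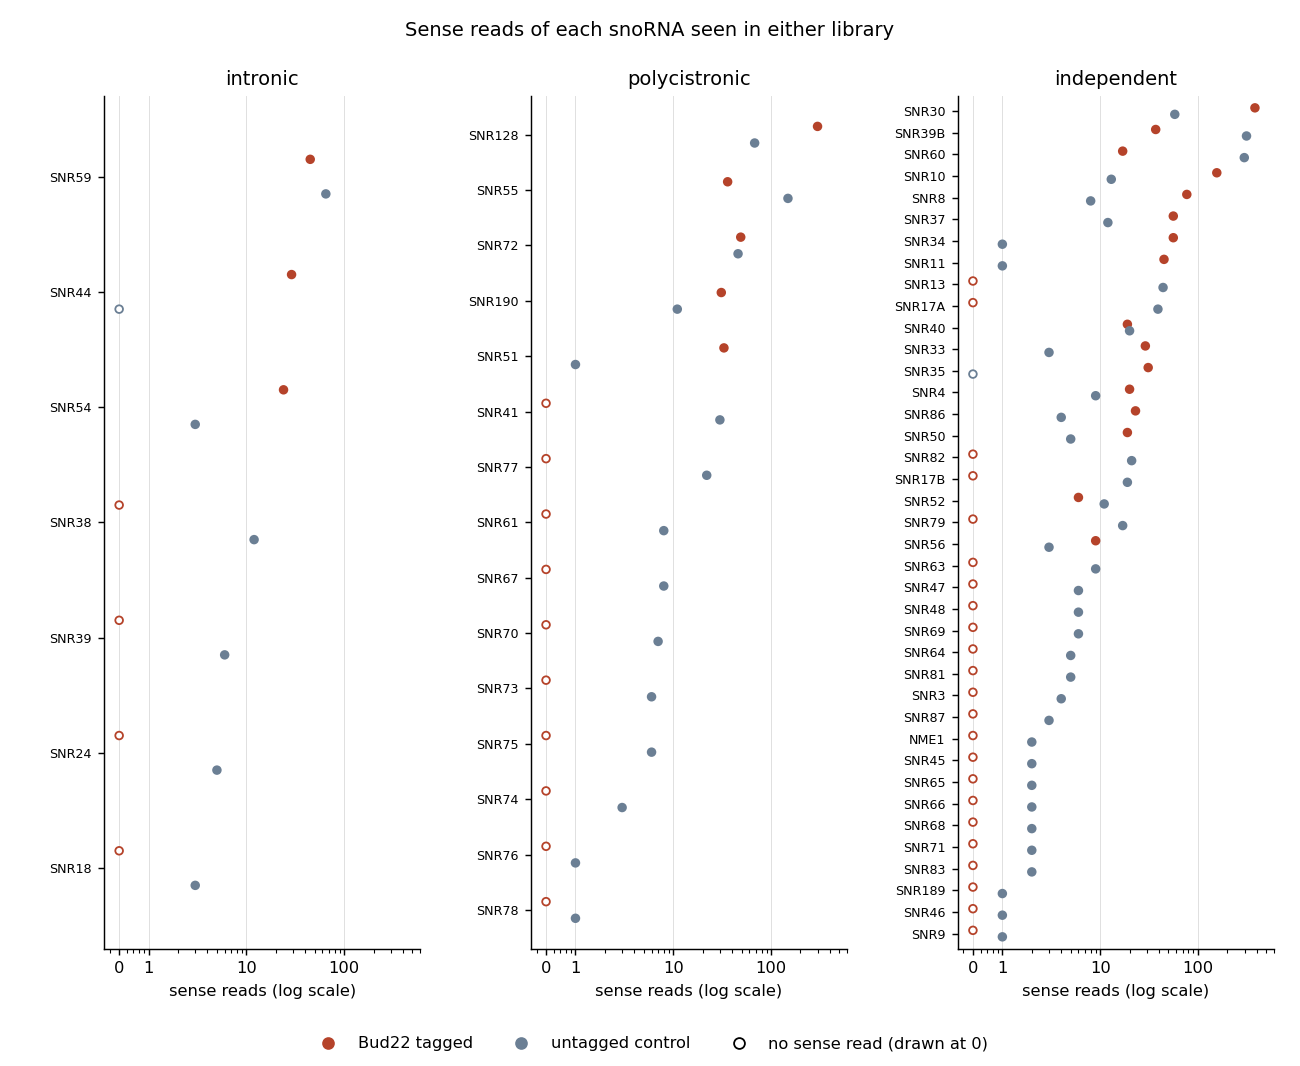
Sense reads (log axis, with 0 drawn at its left end) of each snoRNA seen in either library, in a panel for each gene organisation and ordered by summed reads. Red is the Bud22 library and grey-blue the untagged control, and open circles mark no sense read. In each panel the lower rows have control reads only, and SNR35 and SNR44 are the members with Bud22 reads only.

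The intronic snoRNAs with Bud22 reads were SNR59, SNR44 and SNR54. SNR59, in RPL7B, guides methylation of 25S rRNA and had 45 reads on 2 entries with Bud22 against 65 reads on 13 entries in the control. Its ratio over all named features was 0.426 (0.285 to 0.633) by reads and 0.965 (0.106 to 4.26) by entries, so it was lower by reads only. SNR44, the box H/ACA guide in RPS22B, had 29 reads on 1 entry with Bud22 and none in the control. Against a floor of 3 control reads this is 5.95-fold higher. The exact lower bound of the ratio by reads was 4.54, and neither value holds for molecules. SNR54, in IMD4, guides methylation of 18S rRNA and had 24 reads on 1 entry with Bud22 against 3 reads on 2 entries in the control, with a read ratio of 4.92 (1.49 to 25.5) and an entry ratio of 3.14 (0.0532 to 60.2).

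The other intronic members were without Bud22 reads. SNR38, the 25S guide in TEF4, had 0 reads with Bud22 against 12 reads on 6 entries in the control. Against a floor of 3 Bud22 reads it was 6.50-fold lower. The upper bound of its ratio was 0.221 by reads and 5.33 by entries. SNR39, the RPL7A copy of SNR59, had 0 with Bud22 against 6, SNR24 in ASC1 had 0 against 5, and SNR18 in EFB1 had 0 against 3. SNR191, in NOG2, had no row in either file. The single SNR59 gene held 45.9% of intronic reads with Bud22 and 69.1% in the control, and without it the ratio of the group was 1.12 (0.702 to 1.83).

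A read inside an intronic snoRNA also counts at its host gene, because in the R64 table each of the 8 snoRNAs lies within the span of its host. With Bud22, the reads of the hosts equalled those of their snoRNAs in each case: 45 at RPL7B and SNR59, 29 at RPS22B and SNR44, 24 at IMD4 and SNR54, and 0 at the other 5 hosts. The entries were equal too, at 2, 1 and 1. Host genes thus held 98 reads with Bud22, the same number as their snoRNAs, which leaves 0 for exons and the rest of the introns. In the control the hosts held 125 reads and the snoRNAs 94, which leaves 31 reads on 15 entries elsewhere in the hosts.

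The reads left over in the control were spread over 7 hosts. IMD4, which encodes an IMP dehydrogenase, had 11 reads of which 3 lay in SNR54, and EFB1, a translation elongation factor gene, had 10 of which 3 lay in SNR18. RPS22B had 6 and NOG2, a GTPase gene of the large subunit pathway, had 2, none of them in the snoRNA. TEF4 kept 4, RPL7A 2 and RPL7B 2. At ASC1 all 5 reads lay in SNR24. The snoRNA share of host reads was 100% with Bud22 (96.3 to 100) and 75.2% in the control (66.7 to 82.5). By entries it was 4 of 4 with Bud22, with an interval of 39.8 to 100%, against 27 of 42 in the control, or 64.3% (48.03 to 78.4). The entry intervals overlap, and at that depth a difference in host sequence outside the snoRNA was not tested.

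**Figure D3:**
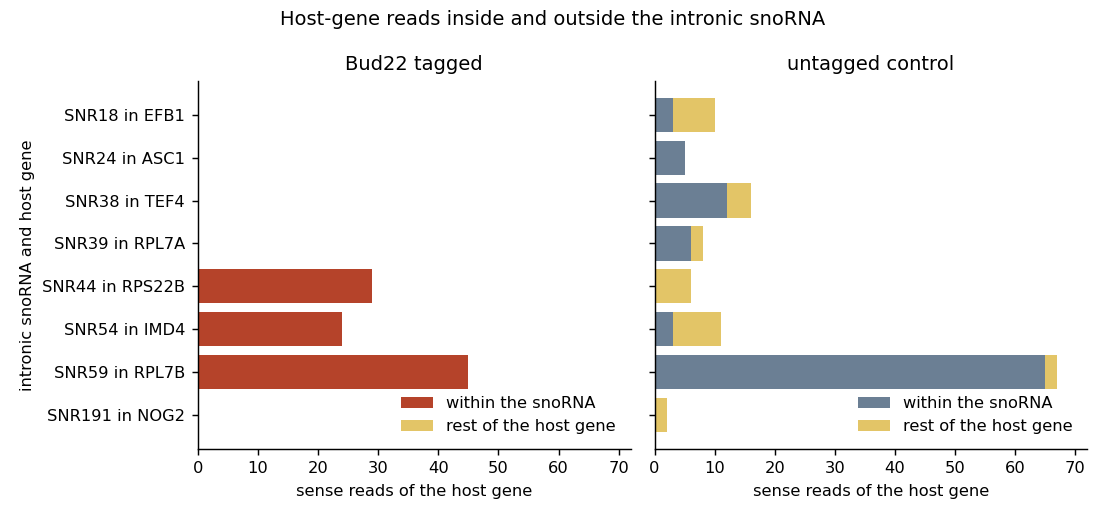
Sense reads of the 8 host genes of intronic snoRNAs, divided into the count of the snoRNA (red for Bud22, grey-blue for the untagged control) and the remainder of the host gene (yellow). With Bud22 no yellow remainder is left at any host, and in the control 31 of 125 host reads are remainder.

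Among the polycistronic snoRNAs, SNR128 alone held most of the Bud22 counts. The cluster of SNR190 and SNR128 had 330 reads on 17 entries with Bud22 against 79 reads on 29 entries in the control, a ratio of 2.57 (2.01 to 3.33) by reads and 3.68 (1.90 to 6.92) by entries. It was above 1 with each denominator tried, down to 1.26 (0.985 to 1.63) relative to tRNA reads, where the interval includes 1. SNR128 (U14), which methylates 18S rRNA and is needed for precursor cleavage, had 299 reads on 16 entries with Bud22 against 68 reads on 23 entries in the control. Its ratio was 2.71 (2.07 to 3.57) by reads and 4.36 (2.15 to 8.63) by entries, and it was not called by reads relative to totals without rRNA or to tRNA. Its partner SNR190, which pairs with 25S rRNA, had 31 reads on 1 entry with Bud22 against 11 reads on 6 entries. The ratio of SNR190 was 1.73 (0.848 to 3.82) by reads and 1.05 (0.0227 to 8.62) by entries.

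SNR128 held 90.6% of the cluster's reads with Bud22 (86.9 to 93.5) and 86.1% in the control (76.5 to 92.8), and 94.1% of entries with Bud22 (71.3 to 99.9) against 79.3% (60.3 to 92.01). These intervals overlap, and a difference in how the pair shared the reads was not tested.

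Apart from SNR128, the polycistronic snoRNAs had 149 reads on 4 entries with Bud22 against 299 reads on 79 entries in the control. The ratio of this rest was 0.307 (0.250 to 0.374) by reads and 0.318 by entries, and its share of snoRNA entries was also lower, at 0.301 (0.0799 to 0.801) times the control. By reads it was below 1 with each denominator tried, up to 0.584 (0.477 to 0.713) with the median ratio of measured features set to 1. SNR128 was set aside with its values known, and removing a high gene lowers what remains. In the control, SNR55 alone held 149 of the 299 reads of this rest, and 16 of its 79 entries. With SNR128 kept and SNR55 left out, the polycistronic ratio was 1.16 (0.984 to 1.38) by reads and 1.39 (0.796 to 2.30) by entries.

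In 3 clusters the Bud22 reads fell on 1 member only, and on 1 entry. In the cluster SNR41, SNR70 and SNR51, all of whose members methylate 18S rRNA, SNR51 held all 33 reads with Bud22 against 1 of 38 in the control. SNR41 had 0 reads with Bud22 against 30, and SNR70 had 0 against 7. SNR41, the first gene of the cluster, thus held 78.9% of the control reads (62.7 to 90.4) and 0 of 33 with Bud22, where the interval reaches 10.6%. By entries, however, the whole cluster rests on 1 with Bud22 against 18 in the control, and the interval for the SNR51 share, 2.5 to 100%, overlaps that of the control, 0.141 to 27.3%.

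In the cluster SNR57, SNR55 and SNR61, the 18S guide SNR55 held all 36 reads with Bud22 on 1 entry, against 149 of 157 reads on 16 of 19 entries in the control. The other 8 control reads were those of the 25S guide SNR61, and SNR57 had no row in either library. SNR55 was thus the leading member in both libraries, and its ratio over all named features was 0.149 (0.100 to 0.215) by reads, with an entry ratio of 0.392 (0.00935 to 2.52).

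The largest cluster runs from SNR78 to SNR72 and has 7 members. Its last gene, the 25S guide SNR72, held all 49 reads with Bud22 on 1 entry, against 46 of 85 reads in the control. In the control every member had reads: SNR77, an 18S guide, had 22 reads, SNR75 and SNR73 had 6 each, SNR74 had 3, and SNR78 and SNR76 had 1 each. SNR72 and SNR77 had 11 control entries each of 31, so they led together by entries. SNR72 had a ratio of 0.655 (0.429 to 1.002) by reads. Against a floor of 3 Bud22 reads SNR77 was 11.9-fold lower, with upper bounds of its ratio of 0.112 by reads and 2.50 by entries. For the pair SNR67 and SNR53 there was no Bud22 read. In the control SNR67, a 25S guide, had 8 reads on 5 entries, and SNR53 only its antisense read.

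**Figure D4:**
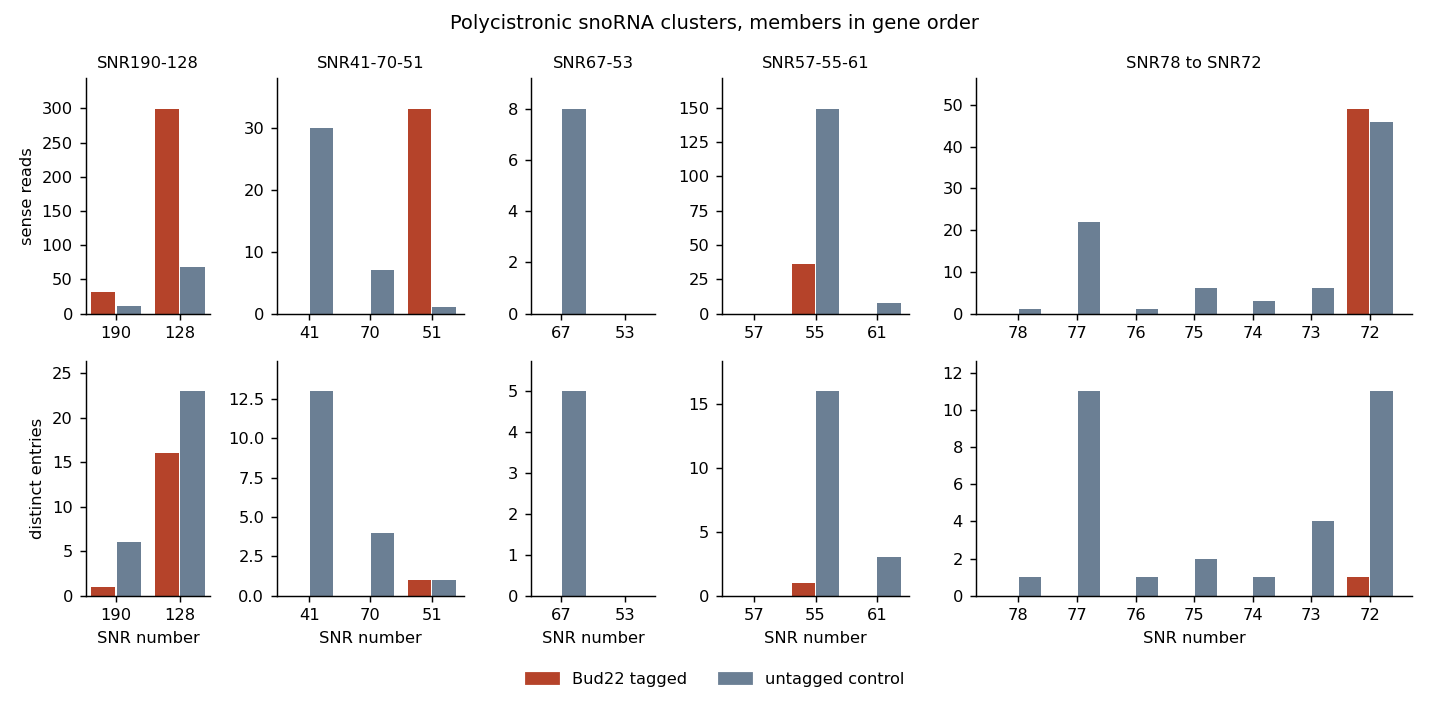
Counts of each member of the 5 polycistronic clusters in gene order, sense reads in the top row and distinct entries in the bottom row, with the Bud22 library in red and the untagged control in grey-blue; each panel has its own axis from 0. Outside the SNR190 and SNR128 pair, a cluster has at most 1 member with a red bar, resting on 1 entry, while in the control several members of SNR78 to SNR72 and of SNR41 to SNR51 have reads and SNR55 and SNR67 hold most or all of theirs.

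The independent snoRNAs split by box family. Independent box H/ACA snoRNAs had 856 reads on 27 entries with Bud22 against 135 reads on 84 entries in the control, a ratio of 3.90 (3.25 to 4.71) by reads and 2.02 by entries. Independent box C/D snoRNAs had 127 reads on 13 entries with Bud22 against 824 reads on 165 entries, a ratio of 0.0948 (0.0780 to 0.114) by reads and 0.494 by entries. Both directions by reads were the same with each of 5 other denominators. Their shares of snoRNA entries gave 1.91 (1.19 to 2.98) and 0.468 (0.244 to 0.822), with intervals excluding 1. As parts of the same total, these shares are not separate results. The entry ratios depend on the total used: for all independent snoRNAs they were 0.9995 over all named features and 2.27 over totals without rRNA and tRNA. The families were not compared over that last total. By reads, the near-equal totals of the independent group, 983 and 961, are thus sums of families that differ in opposite directions.

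The H/ACA reads with Bud22 were mostly those of snoRNAs that act in 18S processing, SNR30 and SNR10. SNR30 led in both libraries, with 44.7% of independent H/ACA reads with Bud22 and 43.0% in the control. SNR30, which is needed for release of 18S rRNA, had 383 reads on 11 entries with Bud22 against 58 reads on 31 entries, and SNR10 had 156 reads on 4 entries against 13 on 10. Over all named features SNR30 had a ratio of 4.06 (3.08 to 5.45) by reads and 2.23 (1.01 to 4.55) by entries, and SNR10 had 7.38 (4.19 to 14.2) and 2.51 (0.574 to 8.70).

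The remaining H/ACA members with Bud22 reads guide pseudouridylation. SNR8, a 25S guide, had 77 reads on 2 entries with Bud22 against 8 on 5, and SNR37 had 56 on 2 against 12 on 8. SNR34 had 56 reads on 3 entries with Bud22 against 1 read, and SNR11 had 45 on 2 against 1. SNR33 had 29 reads on 1 entry with Bud22 against 3 and SNR86 23 on 1 against 4. The 18S guide SNR35 had 31 reads on 1 entry with Bud22 and none in the control. Against a floor of 3 control reads SNR35 was 6.36-fold higher, with a lower bound of its ratio by reads of 4.87. Each of these 7, picked for having Bud22 reads, was higher by reads, beside 23.7% of all measured named features. All but SNR37 had fewer than 10 control reads, so they were measured through their Bud22 reads. None had the 10 entries over both libraries needed for a call by entries except SNR37, whose ratio was 1.57 (0.162 to 7.86). In the same family, another 7 members had control reads only, and of these SNR82 alone was measured. SNR82, a 25S guide, went the other way by reads, with 0 with Bud22 against 21 reads on 14 entries. Against a floor of 3 Bud22 reads it was 11.4-fold lower. The upper bound of its ratio was 0.118 by reads and 1.89 by entries.

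Among independent box C/D snoRNAs, SNR39B and SNR60 held 54 of the 127 reads with Bud22 and 612 of the 824 in the control. SNR39B, a 25S guide, had 37 reads on 1 entry with Bud22 against 314 reads on 38 entries, a ratio of 0.0725 (0.0501 to 0.102) by reads and 0.165 (0.00407 to 0.977) by entries. SNR60, also a 25S guide, had 17 reads on 5 entries with Bud22 against 298 reads on 34 entries. Its ratio was 0.0351 (0.0202 to 0.0572) by reads but 0.922 (0.282 to 2.37) by entries, the widest gap between the measures among the members seen in both libraries. SNR60 had 3.4 reads per entry with Bud22, against 23.9 over all snoRNAs of that library.

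The other independent box C/D snoRNAs seen with Bud22 had few reads. The 18S acetylation guide SNR4 had 20 reads with Bud22 against 9, SNR40 had 19 against 20, SNR50 had 19 against 5, SNR56 had 9 against 3 and SNR52 had 6 against 11. SNR52, which RNA polymerase III transcribes, was called lower by reads, at 0.336 (0.102 to 0.990). It rested on 1 entry with Bud22 against 6, an entry ratio of 1.05 (0.0227 to 8.62). The others were not called either way. Ratios of SNR4, SNR50 and SNR56 were above 1 by reads (1.37, 2.34 and 1.85) and by entries, and that of SNR40 was below 1 by both. All these intervals include 1, on at most 2 Bud22 entries each. Some members had no Bud22 read at all. SNR13, a 25S guide, had 44 control reads and was 23.8-fold lower against a floor of 3 Bud22 reads. The U3 genes SNR17A and SNR17B had 39 and 19 control reads and were lower by 21.1-fold and 10.3-fold against that floor. The 18S guide SNR79 had 17 and was 9.21-fold lower against it. By reads the exact upper bounds of the ratios were 0.0538 for SNR13, 0.0610 for SNR17A, 0.132 for SNR17B and 0.149 for SNR79. By entries a decrease of these 4 genes was not detectable at this depth: with 0 entries with Bud22 against 19 and 15 in the control, the intervals of SNR13 and SNR17A reached 1.34 and 1.75, and SNR17B and SNR79, with 5 and 8 control entries, had fewer than the 10 needed for a call.

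**Figure D5:**
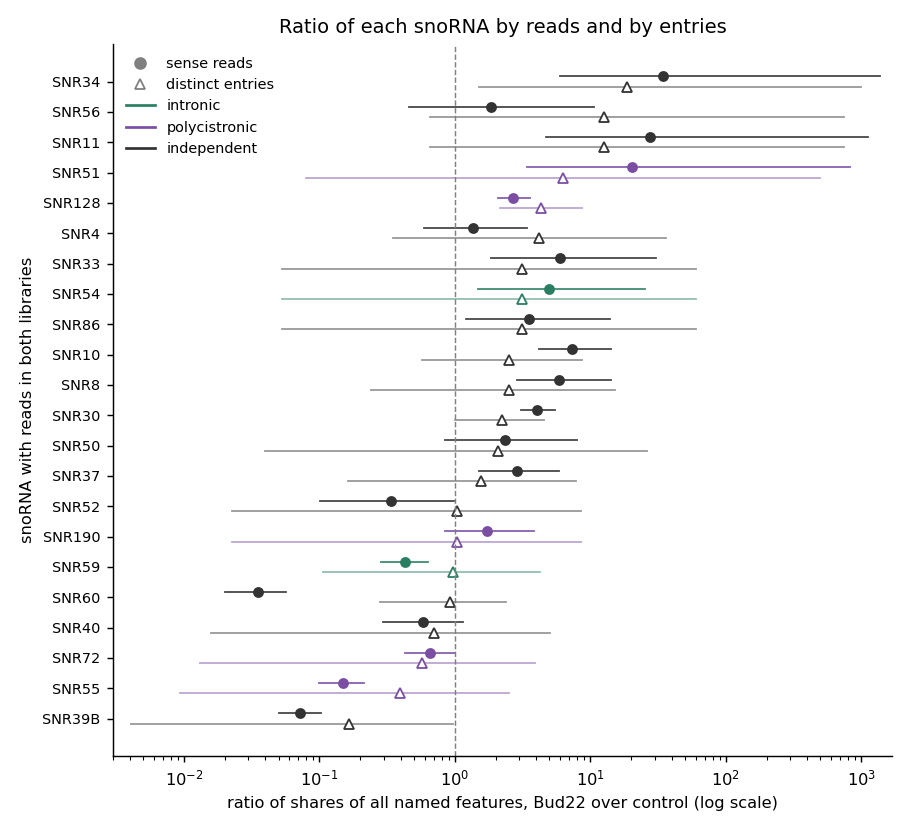
Ratio of each snoRNA with reads in both libraries, Bud22 over control as shares of all named features (log axis), by sense reads (filled circles) and by distinct entries (open triangles), with exact 95% intervals; green is intronic, purple polycistronic and black independent. The dashed line marks a ratio of 1. SNR128 and SNR30 lie above 1 with both intervals and SNR39B below 1 with both, SNR34 lies above 1 with both on 4 entries in all, and the entry intervals of the other members include 1.

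Because polycistronic snoRNAs are all box C/D, the box families were also held apart in the comparison between organisations, a comparison chosen after the data were seen. Within box C/D, polycistronic over independent reads came to 3.53 with Bud22 and 0.445 in the control, an odds ratio of 7.91 (6.24 to 10.1), and the odds ratio by entries was 2.48 (1.12 to 5.68). Leaving out SNR128, SNR39B and SNR60, which were picked with their values known as the extremes of each side, had to bring the libraries closer. Without them the read quotient was 2.04 with Bud22 and 1.41 in the control, an odds ratio of 1.45 (1.03 to 2.05). By entries it was 0.571 with Bud22 and 0.849 in the control, an odds ratio of 0.674 (0.139 to 2.77). Without SNR128 alone the odds ratio by entries was 0.644 (0.148 to 2.17), so the direction by entries depended on that gene.

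Of the 62 listed snoRNAs, 32 had the 10 reads over both libraries required for a call, where a call also needed a 2-fold or greater difference and an interval that leaves out 1. With Bud22, 13 of them were higher, against 23.7% of all measured named features, and 13 were lower, against 49.4%. By organisation, 2 of 4 measured intronic, 2 of 7 polycistronic and 9 of 21 independent snoRNAs were higher, and 2, 3 and 8 were lower. Of the 13 higher snoRNAs, 9 had fewer than 10 control reads and so were measured through their Bud22 reads, and 9 rested on at most 2 entries. The counts and medians over measured members therefore support no direction. On the log2 scale the median ratio of those measured was 0.44 for intronic, -0.61 for polycistronic and 0.74 for independent snoRNAs, beside -0.93 for all measured features.

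With 5 other denominators, 7 of the 13 higher snoRNAs and 11 of the 13 lower ones kept their call under all, and none took the opposite one. The calls lost under some of them were the higher ones of SNR30, SNR33, SNR37, SNR86, SNR54 and SNR128 (lost relative to tRNA, and all but the first pair also relative to totals without rRNA) and the lower ones of SNR52 and SNR59 (lost relative to snoRNA totals and when the median ratio was set to 1). In all, 15 snoRNAs were measured by entries. SNR128 and SNR30 were higher, beside 17.5% of measured features, and SNR39B was lower, beside 12.6%. The lower bound of SNR30 by entries, 1.01, lies just above 1.

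Some independent snoRNAs also share their reads with an annotated reading frame. SNR10 overlaps YGL088W in the R64 table, and each of these features had 156 reads with Bud22, against 13 in the control. SNR60 overlaps YJL047C-A, and each had 17 with Bud22, against 298 in the control. Reads in the protein-coding class at these frames are thus equal in number to those of the snoRNA, in entries too, and the libraries' totals hold them at each feature.

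Genes of the snoRNA machinery gave few reads. Of the box C/D protein genes, NOP1, the methyltransferase, had 39 reads on 1 entry with Bud22 against 3 reads on 3 entries, NOP58 and SNU13 had 0 with Bud22 against 2 each, and NOP56 had no row. Of the box H/ACA protein genes, GAR1 had 1 read with Bud22 against 3, NOP10 had 0 against 2 and NHP2 0 against 1, and CBF5 had no row. Of the processing enzymes RNT1, RAT1, DBR1 and XRN1 (listed as KEM1), the exonuclease gene KEM1 had 0 reads with Bud22 against 6 on 1 entry, and the others had no row. In these lists 1 gene, NOP1, was measured and higher, on 1 entry, beside 23.7% of all measured named features. With 3 control reads, it was measured through its Bud22 reads.

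The spliceosomal snRNAs are stable nuclear RNAs of another kind and were listed beside the snoRNAs. SNR19 (U1) had 29 reads on 1 entry with Bud22 against 3, and was higher by reads. LSR1 (U2) had 43 reads on 2 entries with Bud22 against 51 reads on 34 entries and was not called. SNR14 (U4) had 7 reads with Bud22 against 27, and the long and short forms of U5, SNR7-L and SNR7-S, had 0 with Bud22 against 15 and 14. Thus 3 of the 5 measured snRNA features were lower by reads, beside 49.4% of all measured features. SNR7-L and SNR7-S are forms of the same RNA and do not count as separate members. SNR6 (U6) had 0 reads with Bud22 against 1. By entries the intervals of all these ratios include 1.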

How the data were processed

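The deposited files hold unnormalised counts of the reads that overlap each feature, on its sense and antisense strand. Per the file headers, the authors made them with pyReadCounters (Counters 1.2.1). The header's column for a number of reads was taken as the count of distinct entries, since in 0 rows was it larger than both strand counts together; this is inferred from the values, and entries were limited to the sense count. The sources used here do not give aligner settings, trimming, duplicate removal, genome build or annotation release. The R64 table served for names, neighbours and overlaps only: the members of each cluster are adjacent in it.

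Gene organisation followed a fixed rule, with snoRNAs of neither named kind taken as independent. Box family and rRNA target come from general knowledge. The members and lists were chosen with earlier results of these data known. The genes named were all intronic and polycistronic members, independent members with Bud22 reads, the 10 with the most control reads, host genes, snoRNP protein and processing genes, and snRNAs. Intergenic regions, which name no gene, were left out of totals, with 15.8% of the sense counts and 94.2% of the antisense counts with Bud22, against 13.7% and 89.0% in the control.

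Shares have Clopper-Pearson and ratios exact conditional binomial 95% intervals, odds ratios are conditional, and log2 ratios use a pseudocount of 0.5 (Python 3.11.15, scipy 1.17.1). A feature without reads in 1 library was set against a floor of 3 counts, which is 0.00139% of the named total with Bud22 and 0.00226% in the control. Fold values from this floor are not confidence limits, so the exact bounds of the ratios stand beside them. The planned search for promoter motifs was not run, as no sequences were used here.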

Additional observations from a re-analysis of the deposited data

How the results depend on the processing

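These values are limited by depth (64 snoRNA entries with Bud22 against 380) and by 1 library a group. Further limits are reads that rest on few entries, as inferred here, and the choice of denominator and single genes, which turned directions. No paired analysis was possible because each group has 1 library. The cause of a change was not tested beyond what each setting leaves out. Counting antisense reads too, the 3 kinds of snoRNA gene kept their shares and ratios within the intervals given and the calls numbered 13 higher and 12 lower, and leaving out NME1 kept their shares there, as did entries for shares.

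Shares of snoRNA reads moved with the genes left out. Without SNR59 the intronic share was 3.57% with Bud22 and 2.14% in the control. Without SNR128 the polycistronic share was 12.1% with Bud22 and 22.1% in the control, and without SNR190 as well 9.84% and 21.4%. Without both genes the intronic share was 8.17% with Bud22 and the independent share 82.0% with Bud22 and 71.6% in the control. The independent share without SNR30 was 52.4% with Bud22. Without SNR39B and SNR60, the intronic, polycistronic and independent shares were 6.64%, 30.4% and 63.0% with Bud22, against 11.6%, 45.3% and 43.1% in the control. Without the intronic snoRNAs whose host has reads, which leaves no intronic reads, the independent share was 68.7% with Bud22 and 72.4% in the control. Among box C/D snoRNAs the intronic share was 10.7% with Bud22, the polycistronic 69.6% with Bud22 and 28.6% in the control, and the independent 19.7% and 64.1%. Among box H/ACA snoRNAs the intronic share was 3.28% with Bud22, and the independent 96.7% with Bud22 and 100% in the control.

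Ratios of intronic, polycistronic and independent snoRNAs moved with the denominator. They were 0.405, 0.474 and 0.397 over totals without rRNA and 0.315, 0.369 and 0.309 over tRNA. Over snoRNA totals they were 0.970, 1.14 and 0.951, and with the median ratio set to 1 they were 1.22, 1.43 and 1.199. Over mapped reads the polycistronic and independent ratios were 0.631 and 0.529. By entries the ratios were 0.929, 1.23 and 0.9995, and by entries over totals without rRNA and tRNA, an alternative chosen after seeing the data, 2.11, 2.79 and 2.27. Without the member with most reads over both libraries in each kind (SNR59, SNR128 and SNR30) they were 1.12, 0.307 and 0.409. The polycistronic ratio was 0.252 without SNR128 and SNR190. With box C/D only, intronic and independent ratios were 0.452 and 0.0948 by reads, and the independent ratio was 3.90 with box H/ACA only. Without SNR39B and SNR60, which was chosen after seeing the data, the independent ratio was 1.64 by reads and 1.19 by entries.

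By entries SNR128 held 94.1% of its cluster with Bud22, and in the control SNR55 held 84.2% and SNR72 35.5% of theirs. The 13 higher and 13 lower snoRNAs became 2 and 1 by entries. The higher were 7 over tRNA, and the lower 27 with no minimum count and 7 with at least 30 counts. Box C/D polycistronic over independent snoRNAs, 7.92 times the control's quotient by reads with Bud22, came to 2.49 by entries, 3.23 without SNR128 (0.643 by entries), 3.55 without SNR39B and SNR60 (2.61 by entries), and 1.45 without all 3 (0.673 by entries), settings chosen after seeing the data.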
